A study of Mus musculus with 10 samples.

Results

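The genes described here are the 8 that encode the sensors, the substrate and the feedback arm of the integrated stress response in αTC1 cells. They were taken by symbol from the deposited count table: the 4 eIF2 kinases Eif2ak1, Eif2ak2, Eif2ak3 and Eif2ak4, the phosphatase subunits Ppp1r15a and Ppp1r15b, the substrate Eif2s1, and the mitochondrial protease Oma1. All 8 were found among the 33212 genes of the table, and all 8 had enough counts to test. αTC1 is a mouse line established from a glucagon-producing pancreatic tumour, and it was the single line of the experiment. Cells received 10 μM enzalutamide, an antagonist of the androgen receptor, for 48 h (5 libraries), or DMSO, its solvent, for 48 h (5 libraries), and polyadenylated RNA was sequenced.

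The α subunit of the initiation factor eIF2 can be phosphorylated on a single serine by 4 kinases, each of which answers a different stress. HRI, encoded by Eif2ak1, responds to haem shortage and relays mitochondrial stress, PKR (Eif2ak2) binds double-stranded RNA, PERK (Eif2ak3) senses unfolded protein in the endoplasmic reticulum, and GCN2 (Eif2ak4) responds to uncharged tRNA and stalled ribosomes. Phosphorylated eIF2 blocks its own exchange factor eIF2B, which lowers general translation and raises translation of the transcription factor ATF4. The protein phosphatase PP1 reverses the mark when guided to eIF2 by GADD34 (Ppp1r15a), itself induced through ATF4 and CHOP, or by the constitutive CReP (Ppp1r15b). These steps act largely on proteins, so transcript levels give the supply of each component and not its activity.

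The substrate site is shown because all 4 kinases converge on it. The serine codon is codon 52 of 315 in Eif2s1, counted with the initiator methionine, and lies in exon 2 of 8 (chr12:78866680-78866682, plus strand, GRCm38/mm10). The coding DNA of codons 45 to 59, from the GENCODE M21 transcript, follows with the serine codon in capitals.
Eif2s1: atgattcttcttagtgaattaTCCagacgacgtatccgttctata

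The promoter of Ppp1r15a is shown because that gene had the largest change of the 8. The 250 bases before its RefSeq start (chr7:45526269-45526518, minus strand, GRCm38.p6) contain a cAMP response element, TGACGTCA, at positions -12 to -5, and one interferon-type repeat, 2 copies of GAAA with any 2 bases between them, at -220 to -211, both in capitals.
Ppp1r15a: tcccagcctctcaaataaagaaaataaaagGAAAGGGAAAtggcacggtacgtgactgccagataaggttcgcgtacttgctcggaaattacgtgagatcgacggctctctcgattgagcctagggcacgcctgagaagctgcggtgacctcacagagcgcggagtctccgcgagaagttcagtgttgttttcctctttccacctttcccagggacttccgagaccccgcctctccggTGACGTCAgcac

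Eif2ak2 is known as an interferon-induced gene, and its start window contains the same type of repeat at positions 19 to 28 after the start (chr17:78882535-78882564, minus strand, GRCm38.p6), in capitals below.
Eif2ak2: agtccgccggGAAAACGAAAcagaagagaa

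Motifs of 4 kinds were searched on both strands in RefSeq windows of 300 bases, from 250 before to 50 after a start. Of the 8 members, Ppp1r15b had no entry among these windows, so its start was not searched. TGACGTCA occurred in 1.79% of 32851 windows and, among the other 7 members, in the window of Ppp1r15a. The GAAA repeat occurred in 3.44% of windows and, among the members, in those of Ppp1r15a, Eif2ak2 and Eif2s1. The C/EBP-ATF sequence TGATGNAA (3.97% of windows) and the endoplasmic reticulum stress element, CCAAT and CCACG with any 9 bases between them (0.119%), had no match in the 8 windows of the 7 members with an entry. These matches describe letters in a window and are not evidence of binding.

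Library totals were between 59557697 and 68603842 counts, and a gene without any count could still have been present at up to 3 counts, at most 0.0497 CPM, a bound on counting error only. CPM stands for the counts of a gene per 1e6 counts of the scaled library total. Enzalutamide libraries 2 and 5 stood apart from the rest of their group. The chi-square of counts per degree of freedom was 37.4 between them and 15.7 to 20.5 between either and libraries 1, 3 and 4, against 9.19 to 10.4 among those 3 and 9.49 to 13.9 between DMSO libraries. Without library 2 or without library 5, 7 of the 8 members passed, as with all libraries, but without library 5 Oma1 passed and Eif2ak4 did not. The α cell character given by the label was checked with 8 marker genes, all of them detected. Their summed level was between 11431 and 12737 CPM in enzalutamide libraries and between 19393 and 20631 CPM in DMSO libraries, most of it Gcg, the glucagon gene. At an adjusted p under 0.05 in the test given below, 5 of the 8 fell and 0 rose, where 37.8% of all genes passed. Of 8 markers of other islet cells, Ins1, Pdx1, Sst and Ppy had 0 counts in every library, and the summed level was at most 3.14 CPM in enzalutamide and 4.00 CPM in DMSO libraries. Of 10 markers of cells outside the islet, 4 had 0 counts throughout (Ptprc, Cdh5, Prss2 and Krt19). The summed level of these 10 was between 8.18 and 10.4 CPM in enzalutamide and between 6.35 and 8.18 CPM in DMSO libraries, chiefly Pdgfra, a growth factor receptor, which rose with a log2 fold change of 0.37. The part of these shifts in the results below was not tested.

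Enzalutamide-treated cells had more Ppp1r15a transcript, slightly more Ppp1r15b and Eif2ak4, and slightly less Eif2ak1, Eif2ak2, Eif2ak3 and Eif2s1. Of the 8 genes 3 rose and 4 fell at an adjusted p under 0.05 in edgeR's quasi-likelihood test, so that 7 passed, where 37.8% of the 14156 genes tested passed (19.0% higher and 18.8% lower). These calls were 2696 higher and 2662 lower, and with libraries scaled to total counts alone they were 3285 higher and 2131 lower. Ppp1r15a rose by 57.6%, and the other 6 changes were between 8.53% and 13.4% in size. Enzalutamide and DMSO values were fully separate for 5 of the 8 genes, against 26.8% of all genes tested. Except for Ppp1r15a, the sizes were ordinary for this comparison: the median absolute log2 fold change over all genes was 0.16, and over all genes that passed it was 0.25. In bulk RNA, fewer cells that express a gene and less of its RNA per cell cannot be told apart.

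**Figure D1:**
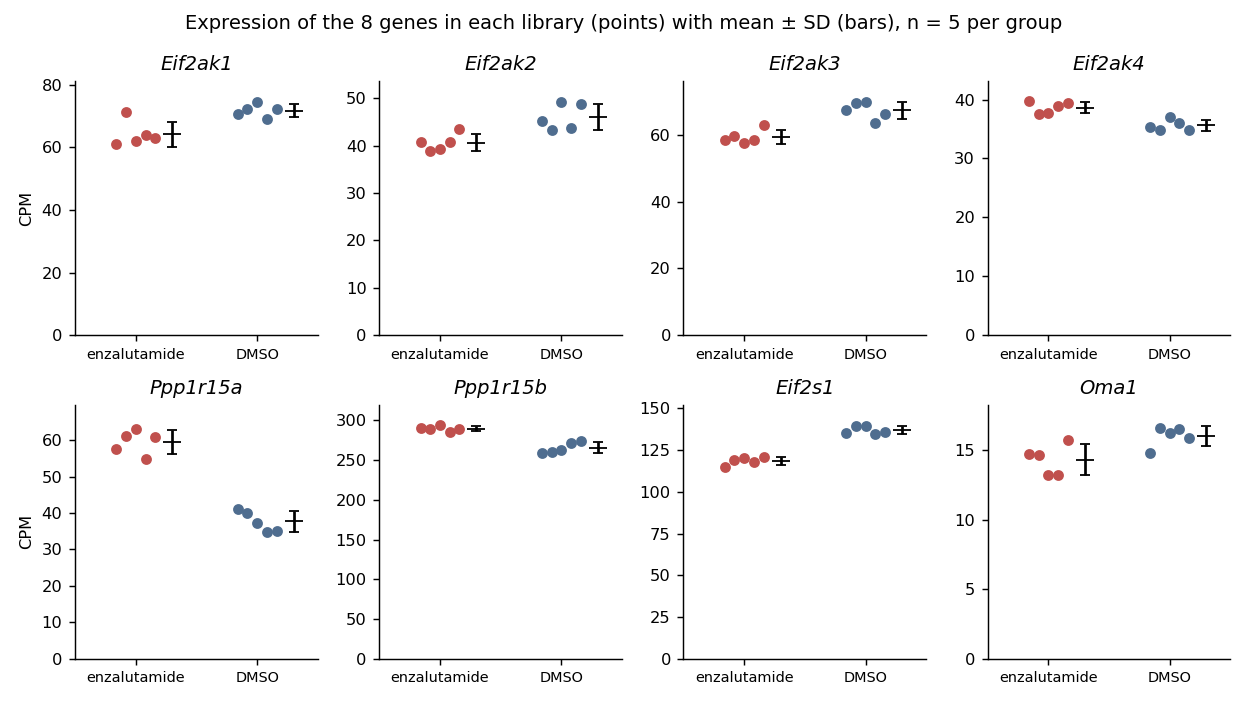
CPM of each of the 8 genes (vertical axes, from 0) in the 5 enzalutamide libraries (left, red) and the 5 DMSO libraries (right, blue), with the mean and SD as black bars. The groups separate for Ppp1r15a, Ppp1r15b, Eif2s1, Eif2ak3 and Eif2ak4 and overlap for Eif2ak1, Eif2ak2 and Oma1.

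The PERK gene Eif2ak3 (ENSMUSG00000031668; chr6:70844515-70905245) fell. It had 58.5, 59.5, 57.6, 58.3 and 63.0 CPM in enzalutamide libraries 1 to 5, against 67.6, 69.5, 69.7, 63.6 and 66.2 CPM in DMSO libraries 1 to 5. The highest enzalutamide value lay just below the lowest DMSO value. Its log2 fold change was -0.18 (SE 0.0396, 95% interval -0.26 to -0.10, adjusted p = 0.00149).

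The HRI gene Eif2ak1 (ENSMUSG00000029613; chr5:143817788-143904251) fell by a similar amount. It had 61.1, 71.2, 62.1, 63.8 and 63.0 CPM in enzalutamide libraries 1 to 5, against 70.5, 72.2, 74.5, 69.0 and 72.2 CPM in DMSO libraries 1 to 5. Enzalutamide library 2 lay within the DMSO range, and the other 4 enzalutamide values lay below it. The log2 fold change was -0.16 (SE 0.0433, 95% interval -0.24 to -0.07, adjusted p = 0.00754), and it was -0.20 without enzalutamide library 2. Eif2ak1 shares 487 exon bases with Aimp2, a gene on the opposite strand that also fell (log2 fold change -0.32), and the strand setting of the counting is not given in the sources used here.

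The PKR gene Eif2ak2 (ENSMUSG00000024079; chr17:78852564-78882573) fell as well. It had 40.7, 38.8, 39.4, 40.8 and 43.4 CPM in enzalutamide libraries 1 to 5, against 45.3, 43.3, 49.1, 43.6 and 48.7 CPM in DMSO libraries 1 to 5. Enzalutamide library 5 just exceeded DMSO library 2, and no other enzalutamide value reached the DMSO range. This gave a log2 fold change of -0.18 (SE 0.0491, 95% interval -0.28 to -0.08, adjusted p = 0.00757).

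The GCN2 gene Eif2ak4 (ENSMUSG00000005102; chr2:118388618-118475234) was the kinase gene that rose. It had 39.7, 37.5, 37.7, 38.9 and 39.4 CPM in enzalutamide libraries 1 to 5, against 35.3, 34.8, 37.1, 36.0 and 34.8 CPM in DMSO libraries 1 to 5. The groups did not overlap, but DMSO library 3 lay close to the lowest enzalutamide value. The log2 fold change was 0.12 (SE 0.0413, 95% interval 0.04 to 0.20, adjusted p = 0.0318). This was the least secure of the 7 calls: the adjusted p was between 0.0587 and 0.0704 in 6 of the 10 fits that left out 1 library, those that omitted enzalutamide library 1, 4 or 5, or DMSO library 1, 2 or 5.

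The kinases were then compared with one another through the ratio of their counts within each library, which does not depend on library scaling. Of gene pairs, 7 were tested, the 6 kinase pairs and the pair of phosphatase subunits, by an exact two-sided permutation test with Benjamini-Hochberg adjustment over the 7. The smallest p that 5 against 5 libraries can give is 0.00794. Eif2ak3 over Eif2ak4 was 1.473, 1.586, 1.529, 1.498 and 1.600 in enzalutamide libraries 1 to 5, against 1.917, 1.996, 1.880, 1.765 and 1.903 in DMSO libraries 1 to 5. The groups did not overlap, and the mean log2 ratio was lower in enzalutamide by a difference of -0.30 (95% interval -0.38 to -0.21; exact permutation p = 0.00794, adjusted p = 0.0139). The ratios of Eif2ak2 and of Eif2ak1 over Eif2ak4 also separated the groups, with differences of -0.30 (interval -0.39 to -0.21) and -0.28 (interval -0.38 to -0.15), each with an exact permutation p of 0.00794 and an adjusted p of 0.0139.

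Among HRI, PKR and PERK no pair ratio passed. The difference of the log2 ratio was 0.02 for Eif2ak1 over Eif2ak2 (95% interval -0.11 to 0.17), 0.02 for Eif2ak1 over Eif2ak3 (interval -0.07 to 0.13) and 0.00 for Eif2ak2 over Eif2ak3 (interval -0.09 to 0.10). Exact permutation p-values were 0.817, 0.690 and 0.992, with adjusted p of at least 0.954. Differences in their change beyond these intervals were not detected, and smaller ones could not be resolved with 5 libraries per group.

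**Figure D2:**
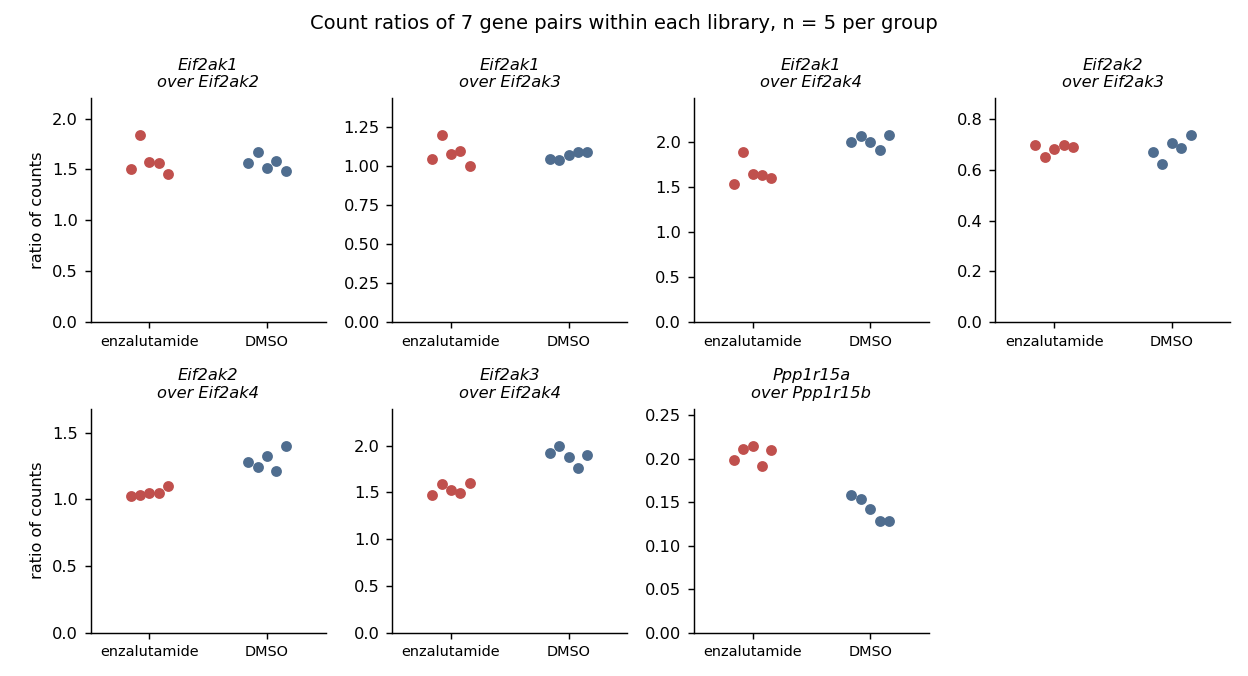
Ratio of the counts of 2 genes within a library (vertical axes, from 0) for 7 gene pairs, in 5 enzalutamide libraries (left, red) and 5 DMSO libraries (right, blue). The 3 ratios to Eif2ak4 are lower in enzalutamide, Ppp1r15a over Ppp1r15b is higher, and the 3 ratios among Eif2ak1, Eif2ak2 and Eif2ak3 overlap.

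Levels of different genes were set side by side as CPM per kilobase of merged exons. Eif2ak1 was the most abundant kinase transcript on this scale, at 14.9 ± 0.925 CPM per kilobase in enzalutamide and 16.6 ± 0.471 in DMSO (SD, n = 5 each), followed by Eif2ak3 at 12.3 ± 0.439 and 13.9 ± 0.528 and Eif2ak2 at 9.42 ± 0.415 and 10.7 ± 0.642. Eif2ak4 was lowest of all 8 genes, at 5.32 ± 0.135 in enzalutamide and 4.90 ± 0.134 in DMSO. The 4 kinases did not overlap in level within either group. Eif2ak4 supplied 12.7% ± 0.455 of the per-length kinase transcript in enzalutamide and 10.7% ± 0.352 in DMSO. These shares depend on the exon lengths used: with the comprehensive annotation they were 15.1% ± 0.512 and 12.7% ± 0.412.

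The 2 highest of the 8 genes per length were Ppp1r15b, at 51.8 ± 0.555 CPM per kilobase in enzalutamide and 47.5 ± 1.17 in DMSO, and Eif2s1, at 34.8 ± 0.670 and 40.2 ± 0.716. Ppp1r15a was the third in enzalutamide at 20.2 ± 1.12, against 12.8 ± 0.974 and the fifth place in DMSO, where its range overlapped that of Eif2ak3. With merged exons of the comprehensive annotation in place of the basic one, Eif2ak1 and Eif2ak3 came out at 12.6 and 11.2 CPM per kilobase in DMSO, and Ppp1r15a was then the third in both groups, although its DMSO range overlapped that of Eif2ak1. Oma1 was at 7.47 ± 0.572 CPM per kilobase in enzalutamide and 8.35 ± 0.384 in DMSO, below Eif2ak2 and above Eif2ak4 in each group.

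**Figure D3:**
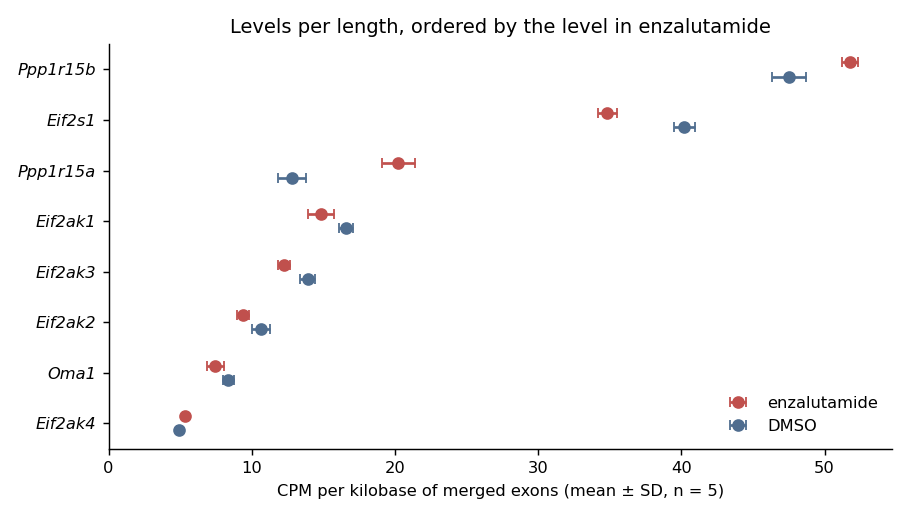
Mean CPM per kilobase of merged exons (horizontal axis, from 0; error bars are SD over 5 libraries) of the 8 genes in enzalutamide (red, upper) and DMSO (blue, lower). Ppp1r15b and Eif2s1 are highest and Eif2ak4 is lowest in both groups, and Ppp1r15a lies at 20.2 in enzalutamide and 12.8 in DMSO.

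The feedback subunit gene Ppp1r15a (ENSMUSG00000040435; chr7:45522916-45526268), the promoter of which is printed above, rose. It had 57.5, 61.0, 63.1, 54.7 and 60.7 CPM in enzalutamide libraries 1 to 5, against 41.2, 40.1, 37.3, 34.9 and 35.1 CPM in DMSO libraries 1 to 5. All enzalutamide values lay well above all DMSO values. The log2 fold change was 0.66 (SE 0.0548, 95% interval 0.55 to 0.76, adjusted p = 6.37e-08), and 586 of the 14156 genes tested had a larger one.

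The constitutive subunit gene Ppp1r15b (ENSMUSG00000046062; chr1:133131143-133139783) rose by less. It had 291, 289, 294, 286 and 289 CPM in enzalutamide libraries 1 to 5, against 259, 261, 263, 272 and 274 CPM in DMSO libraries 1 to 5. The groups did not overlap. Its log2 fold change was 0.12 (SE 0.0272, 95% interval 0.07 to 0.18, adjusted p = 0.00148).

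The change of the inducible subunit exceeded that of the constitutive one. The count ratio of Ppp1r15a to Ppp1r15b was 0.198, 0.211, 0.214, 0.191 and 0.210 in enzalutamide libraries 1 to 5, against 0.159, 0.154, 0.142, 0.128 and 0.128 in DMSO libraries 1 to 5. The log2 ratio differed by 0.53 with no overlap (95% interval 0.36 to 0.72; exact permutation p = 0.00794, adjusted p = 0.0139). Per length, Ppp1r15a made up 28.1% ± 0.981 of the transcript of the pair in enzalutamide and 21.3% ± 1.67 in DMSO, so Ppp1r15b remained the larger part in every library.

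Eif2s1 (ENSMUSG00000021116; chr12:78861819-78887010), which encodes the phosphorylated subunit, fell. It had 115, 119, 120, 118 and 121 CPM in enzalutamide libraries 1 to 5, against 135, 140, 139, 135 and 136 CPM in DMSO libraries 1 to 5. The groups were clearly apart. Its log2 fold change was -0.21 (SE 0.0296, 95% interval -0.27 to -0.15, adjusted p = 2.74e-05).

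Oma1 (ENSMUSG00000035069; chr4:103313812-103371868) encodes the inner membrane protease that, in human cells under mitochondrial stress, cleaves DELE1, which then activates HRI. It had 14.7, 14.7, 13.2, 13.2 and 15.7 CPM in enzalutamide libraries 1 to 5, against 14.8, 16.6, 16.2, 16.5 and 15.8 CPM in DMSO libraries 1 to 5. Enzalutamide library 5 lay above DMSO library 1, so the groups overlapped. The log2 fold change of -0.16 did not pass (SE 0.0653, 95% interval -0.29 to -0.03, adjusted p = 0.0623), although it did without DMSO library 1 (adjusted p = 0.0362) or without enzalutamide library 5 (adjusted p = 0.0257).

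**Figure D4:**
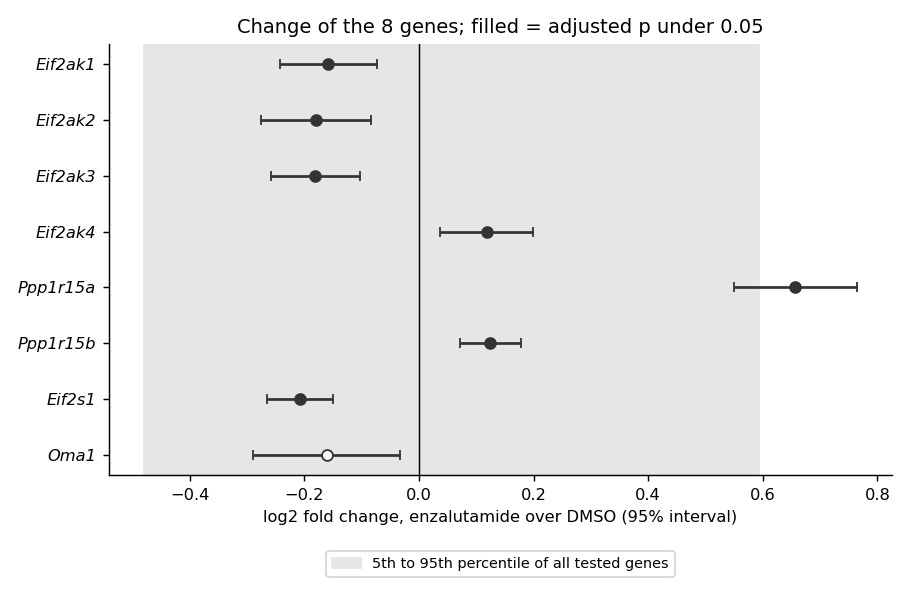
Log2 fold change of enzalutamide over DMSO with 95% intervals for the 8 genes (filled points, adjusted p under 0.05; open point, not passed). The grey band runs from the 5th to the 95th percentile of all 14156 genes tested, -0.48 to 0.59, and Ppp1r15a, at 0.66, is the only one of the 8 points outside it.

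The remaining genes of the pathway were followed through lists chosen for their known roles, with earlier results of these data known. Counts within the lists are therefore descriptive. Each list was read against the 37.8% of all genes that passed and a median log2 fold change of 0.01 over all genes. In the list of eIF2 and eIF2B subunits, 5 of 8 tested members fell and 1 rose, with a median of -0.19. Eif2s1 is one of the 5. The subunits of the eIF2 trimer did not move together: Eif2s3x, encoding the γ subunit, fell (204 ± 7.86 CPM in enzalutamide and 241 ± 7.49 CPM in DMSO; log2 fold change -0.24, adjusted p = 2.24e-05), whereas Eif2s2, encoding the β subunit, rose (log2 fold change 0.19, adjusted p = 0.000644). Of the subunits of the exchange factor eIF2B, Eif2b1 (-0.31, adjusted p = 5.43e-05), Eif2b4 (-0.26, adjusted p = 0.00112) and the catalytic Eif2b5 (-0.18, adjusted p = 0.00306) fell. Eif2b2 and Eif2b3, at log2 fold changes of -0.09 and -0.03, did not pass, and Eif2s3y had 0 counts in every library.

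In the list of PP1 catalytic subunits and inhibitors, which does not hold Ppp1r15a and Ppp1r15b, 5 of 8 tested members fell, 0 rose and 3 did not pass, with a median of -0.11. The 3 catalytic subunit genes had log2 fold changes of -0.14 (Ppp1ca, adjusted p = 0.00303), -0.11 (Ppp1cb, adjusted p = 0.00342) and -0.12 (Ppp1cc, adjusted p = 0.0317). The regulatory subunit genes Ppp1r10 (-0.17, adjusted p = 0.000275) and Ppp1r7 (-0.10, adjusted p = 0.0197) completed the 5. With libraries scaled to total counts alone, 3 of the 8 passed, Ppp1cc and Ppp1r7 no longer among them, and Ppp1cc also lost the call (adjusted p at most 0.0927) when enzalutamide library 4 or 5 was omitted, or DMSO library 1, 3 or 4. Ppp1r7 lost it (adjusted p = 0.0562) when enzalutamide library 1 was omitted.

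Genes that restrain or engage the kinases moved in both directions, with 4 of 13 tested higher, 5 lower and a median of 0.02. Hspa5, the chaperone BiP that holds PERK inactive, fell to 438 ± 16.8 CPM in enzalutamide, against 512 ± 8.75 CPM in DMSO (SD, n = 5 each; log2 fold change -0.22, adjusted p = 1.33e-05). Dnajc3, a co-chaperone reported to inhibit PKR and PERK, fell (-0.22, adjusted p = 0.000273), as did the HSP90 genes Hsp90ab1 (-0.30, adjusted p = 2.16e-08) and Hsp90aa1 (-0.21, adjusted p = 1.46e-06), chaperones on which HRI depends. Impact, an inhibitor of GCN2 activation, rose (218 ± 6.31 CPM in enzalutamide and 193 ± 4.50 CPM in DMSO; log2 fold change 0.18, adjusted p = 0.000164).

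Gcn1l1, encoding the GCN1 protein that GCN2 needs at ribosomes, had a log2 fold change of 0.02 (adjusted p = 0.621), which turned to -0.06 (adjusted p = 0.0251) when trends with GC content and length were removed. The adaptor genes Nck1 and Nck2, linked to eIF2 dephosphorylation, had opposite signs: Nck1 fell (-0.24, adjusted p = 0.000173), and Nck2 had 0.15 at the edge of the threshold (adjusted p = 0.0488). Nck2 did not pass in 8 of the 10 other settings that kept all libraries (adjusted p between 0.0512 and 0.0668), nor without enzalutamide library 2 (adjusted p = 0.139), 3 or 4 or DMSO library 1, 2, 3 or 4. Trib3, a pseudokinase and ATF4 target that restrains the response, rose by 3.07 on the log2 scale (adjusted p = 1.44e-12). PKR partners showed no call, with Prkra at 0.07, Tarbp2 at 0.02 and Adar at 0.08.

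Around Oma1, 6 of 12 tested genes of the mitochondrial inner membrane and its proteases fell and 2 rose, with a median of -0.07. 0610009O20Rik, which RefSeq names Dele1 and which also counts among the 4 higher genes of the preceding list, rose (78.3 ± 3.10 CPM in enzalutamide and 71.7 ± 1.92 CPM in DMSO; log2 fold change 0.13, adjusted p = 0.0115). Yme1l1, the protease that degrades OMA1 when the membrane is depolarised, fell (-0.21, adjusted p = 1.84e-05), and Opa1, the fusion GTPase that OMA1 cleaves, had a log2 fold change of 0.04 (adjusted p = 0.344). Chchd10 rose (0.48, adjusted p = 1.43e-07), and its paralogue Chchd2 fell (-0.19, adjusted p = 0.000402), as did the prohibitin gene Phb (-0.19, adjusted p = 0.00103). OMA1 is controlled mainly by cleavage, which these data do not measure.

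Downstream, 26 of 28 tested ATF4 response genes rose and 0 fell, with a median log2 fold change of 0.95. Of these 28, 21 had a larger log2 fold change than Ppp1r15a, among them Gdf15 and Stc2, which did not pass. Atf4 was at 486 ± 29.5 CPM in enzalutamide and 312 ± 12.2 CPM in DMSO (log2 fold change 0.64, adjusted p = 1.93e-09), close to the 0.66 of Ppp1r15a, and Ddit3, encoding the CHOP factor that induces Ppp1r15a, rose by 1.76 (adjusted p = 2.72e-13). The genes with the lowest adjusted p were Atf5, a related factor, at 1.97, Chac1, a glutathione-degrading enzyme, at 2.19, the folate enzyme Aldh1l2 at 1.17 and the carboxykinase Pck2 at 1.37. Gdf15 and Stc2, both under 1 CPM, did not pass (adjusted p = 0.131 and 0.403).

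Of the other endoplasmic reticulum stress sensors and their targets, 15 of 20 tested genes fell and 3 rose, with a median of -0.24, Hspa5 and Dnajc3 again among those that fell. The sensor genes moved both ways: Ern1, encoding IRE1α, and Atf6 rose with log2 fold changes of 0.65 (adjusted p = 6.12e-09) and 0.43 (adjusted p = 9.42e-09), and the Atf6 paralogue Atf6b fell (-0.18, adjusted p = 0.000781). Herpud1, of protein degradation, rose by 0.59 (adjusted p = 1.66e-09). The transcription factor gene Xbp1 fell (-0.31, adjusted p = 2.36e-05), as did the chaperone and folding genes Hsp90b1 (-0.39, adjusted p = 3.17e-09), Pdia6 (-0.40, adjusted p = 5.54e-08) and Calr (-0.38, adjusted p = 5.57e-08).

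Interferon-induced genes, of which Eif2ak2 is one, were scarce. Of 18 listed genes 10 had enough counts to test, 2 rose and 2 fell, with a median of 0.23. The share of the 10 that passed, 40.0%, was near the 37.8% of all genes tested. The other gene that fell was Ifih1 (2.47 ± 0.368 CPM in enzalutamide and 4.65 ± 0.600 CPM in DMSO; log2 fold change -0.91, adjusted p = 5.54e-05), a sensor of double-stranded RNA, and those that rose were Stat2 (0.26, adjusted p = 0.000675) and Usp18 (0.48, adjusted p = 0.00139). Ifit1 and Oasl2 had 0 counts in every library.

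Haem metabolism was examined because haem restrains HRI. Of 13 tested genes 2 rose and 3 fell, with a median of -0.03. The share that passed, 38.5%, was near the 37.8% of all genes tested. Hmox1, which breaks haem down, rose (64.6 ± 2.60 CPM in enzalutamide and 41.5 ± 1.55 CPM in DMSO; log2 fold change 0.64, adjusted p = 3.24e-09), and Bach1, its repressor, rose by 0.24 (adjusted p = 0.000224). Alas1, the first enzyme of haem synthesis, fell (-0.23, adjusted p = 0.00524), as did Blvra (-0.46, adjusted p = 0.000951), a biliverdin reductase, and Alad (-0.12, adjusted p = 0.0406).

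**Figure D5:**
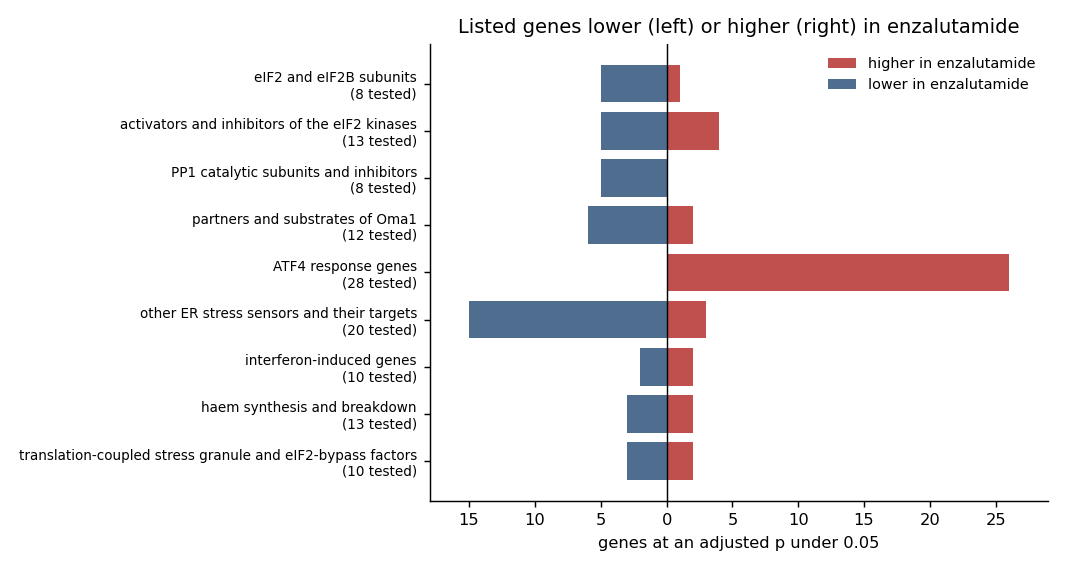
Number of genes (horizontal axis) at an adjusted p under 0.05 that were lower (blue, left) or higher (red, right) in enzalutamide than in DMSO, for 9 gene lists with the number tested in brackets. ATF4 response genes lie on the higher side (26 of 28), and most of the other stress sensors and targets of the endoplasmic reticulum lie on the lower side (15 of 20).

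The genes with the most similar pattern were sought for the 2 members with the lowest adjusted p, among 10195 other genes with a mean of at least 5 CPM. Likeness was the mean absolute difference of log2 CPM over the 10 libraries, after each gene was centred on its own mean. The closest to Ppp1r15a were Fbxl20, Fam57b and A230050P20Rik, with mean differences of 0.0533, 0.0539 and 0.0549, against a median of 0.331 over all genes compared. The closest to Eif2s1 were Calu, Dnmt1 and Sar1a, with mean differences of 0.0149, 0.0189 and 0.0192, against a median of 0.125. As the smallest differences of the search, all of these lay below the medians by construction. Centring over both groups also makes the measure reflect the change with treatment. The log2 fold changes were 0.65, 0.61 and 0.56 for the genes closest to Ppp1r15a, and -0.19, -0.19 and -0.18 for those closest to Eif2s1.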

How the data were processed

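Per the submitters' processing notes, HISAT2, StringTie, DESeq2 and the mm10 build were used, without versions or roles. The authors deposited whole-number counts for 33212 Ensembl genes, 1 column per library. The sources used here give neither the strand setting nor the treatment of multiply aligned reads. A second deposited table held a scaled signal for 20240 genes: for all 20039 uniquely matched symbols, each value times 1 factor per library gave the count within 0.01. No column of values was left unused (0).

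Libraries were grouped by title, 5 per group. The labels call them biological replicates without naming separate cultures, so the p-values reflect library-to-library spread, which may be technical. Every pair of replicates differed by more than counting noise (chi-square over its degrees of freedom, 9.19 to 37.4).

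Counts were filtered with filterByExpr (14156 genes kept), scaled with edgeR's TMM method and tested for enzalutamide against DMSO with edgeR 4.0.16 (quasi-likelihood) in R 4.3.3, with Benjamini-Hochberg adjustment over all genes and a threshold of 0.05. The biological coefficient of variation was 8.39%. SE is the absolute log2 fold change over the square root of F, and 95% intervals use a normal quantile. These intervals of fold changes are therefore narrower than the quasi-likelihood test implies, and they are not adjusted for the number of genes. An interval can thus exclude no change where a gene did not pass, as for Oma1. Intervals of ratio differences hold the shifts that the exact permutation test does not reject. Alternatives were other scalings and filters, the replicate number as a block, DESeq2 1.42.0, limma 3.58.1 (voom, and trend on the scaled signal) and omission of each library. Removal of GC and length trends and the comprehensive annotation were added after seeing the data. The main edgeR fit alone was tested on simulated counts, in which far fewer genes were changed than passed here.

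Positions and exon lengths are from GENCODE M21 (GRCm38/mm10), where 96.3% of identifiers were found, and start windows are from RefSeq (GRCm38.p6). Members and lists were chosen with earlier results of these data known. Named genes were the members, 22 pathway genes named whatever their values, the 3 nearest patterns for each of 2 members, and the 4 (or fewer) lowest adjusted p among calls of a list. Any other gene named was chosen after its values were seen.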

Additional observations from a re-analysis of the deposited data

Results flagged for a closer look

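In 132 groups of 5 libraries, for 59 named genes and 7 ratios, the highest or lowest library was looked for whose distance from its neighbour exceeded 0.71 of the group's range. Chance gives about 1 in 20 such groups, and 10 were found. Among the members, Eif2ak1 in enzalutamide library 2 was at 71.2 CPM, with the other 4 enzalutamide libraries between 61.1 and 63.8 CPM. The count ratio of Eif2ak2 over Eif2ak4 in enzalutamide library 5 was 1.10, with the others between 1.03 and 1.05. Enzalutamide library 2 was also high for Eif2b5, at 85.2 CPM against 75.0 to 77.8 CPM in the others of its group, and enzalutamide library 5 was low for Herpud1, at 82.9 CPM against 86.3 to 87.2 CPM.

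In DMSO libraries, Dnajc3 was high in library 1, at 50.5 CPM (46.5 to 47.6 CPM in the others), and Eif2b1 was low in library 4, at 52.9 CPM (54.9 to 55.1 CPM). Atf5 was low in library 5, at 88.6 CPM (98.0 to 101.6 CPM). Library 3 was low for Aldh1l2, at 175.8 CPM (181.7 to 184.0 CPM), and for G3bp1, at 216.3 CPM (221.6 to 223.5 CPM), and high for G3bp2, at 249.5 CPM (240.3 to 242.7 CPM). None of these values changed the direction of a result when its library was left out.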

How the results depend on the processing

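Counts of genes called, over all genes, the members and the lists, stayed within 1.5 times the reported count under all alternatives but one: with total-count scaling 3 PP1 genes passed. Of the 8 members, 6 or 7 passed in every fit, and the directions of all 8 were kept in every fit. Over all genes, between 4884 and 5786 passed in the alternative fits. The replicate numbers did not pair the libraries (correlations of deviations between -0.00849 and 0.0451). With the replicate number as a block, Eif2ak4 lost its call (adjusted p = 0.0588), and the exact sign-flip test of the ratios gave an adjusted p of 0.109 for differences of -0.28 (Eif2ak1 over Eif2ak4), -0.30 (Eif2ak2 over Eif2ak4), -0.30 (Eif2ak3 over Eif2ak4) and 0.53 (Ppp1r15a over Ppp1r15b), where 5 pairs cannot give an unadjusted p under 0.0625. Among the named genes Gcn1l1 alone changed sign with a call, to -0.0586 with GC and length trends removed, and the cause was not tested. Outside the fits without 1 library, Nck2 lost its call in 8 settings, Ppp1cc in 2 and Ppp1r7 in 1. Total-count scaling moved the median log2 fold change of all genes by 0.03. In the interferon list 8 of 18 genes were below the filter and could not be tested.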

Other observations

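Stress granule and eIF2-bypass genes, which act beside the phosphorylated factor, moved in both directions: of 10 tested, 2 rose and 3 fell, with a median log2 fold change of -0.03. The share that passed was 50.0%, against 37.8% of all genes tested. The granule nucleators G3bp1 (194 ± 3.59 CPM in enzalutamide and 221 ± 2.87 CPM in DMSO; log2 fold change -0.19) and G3bp2 (-0.15) fell, whereas the RNA-binding Tia1 (0.18) and the start-codon factor Eif1 (0.18) rose. Denr, of ribosome reinitiation, fell by 0.14. Eif2a and Eif2d, which can bring initiator tRNA without eIF2, had log2 fold changes of -0.04 and -0.06 and did not pass.

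Beside Aimp2 (28.7 ± 3.21 CPM in enzalutamide and 35.9 ± 1.37 CPM in DMSO), the genes that overlap members on the opposite strand and have counts were far lower than the members. Their group means were at most 2.49 CPM. For Gm43292, which shares 485 exon bases with Eif2ak3 on the opposite strand, no level was available.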
